A study of Mus musculus with 24 samples.

Results

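The acyl-CoA thioesterase family in mouse liver was followed through diet-induced steatohepatitis, a labelled hepatocyte knockout of PPARγ, and rosiglitazone. The 9 genes described are Acot1, Acot2, Acot3, Acot4, Acot7, Acot8, Acot9, Acot12 and Acot13, taken by gene name from the 24137 genes of the joined count tables. All 9 passed the filter on low counts in every comparison. The deposited tables hold 4 further genes named Acot (Acot5, Acot6, Acot10 and Acot11), which are given only beside the others.

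Acyl-CoA thioesterases cut the thioester bond of fatty acyl-CoAs and release a free fatty acid and coenzyme A. They thereby work against the acyl-CoA synthetases, and because each sits in a particular compartment, they set the balance of activated and free acids in the cytosol, mitochondria and peroxisomes. Acot1 to Acot4 are closely related enzymes with an α/β-hydrolase fold and arose by gene duplication. Acot7, Acot8, Acot9, Acot12 and Acot13 have a different, hotdog fold. Several members of the first kind are known targets in rodent liver of the fatty acid receptor PPARα, whose relative PPARγ is the receptor that rosiglitazone activates.

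The libraries came from whole liver RNA of adult mice, 1 library per mouse, in 5 groups. LF C (n = 4) were control mice on the diet labelled LFCF, a low-fat diet. HF C (n = 5) were control mice that ate the HFCF diet, labelled high fat, for 34 weeks and were labelled as having nonalcoholic steatohepatitis. HF KO (n = 5) ate the same diet and were labelled as carrying a PPARγ knockout in hepatocytes, induced after 24 weeks and lasting 10 weeks. HF TZD C and HF TZD KO (n = 5 each) were control and knockout mice of that kind whose HFCF diet held rosiglitazone maleate, a thiazolidinedione, in the last 8 weeks. How the knockout was driven, the strain, the sex and the exact age are not given in the labels. There was no group on the low-fat diet with either the knockout or the drug.

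The libraries held 19.5 to 28.7 M counted reads, and members had from 62 (Acot9) to 4654 (Acot12) reads in a library. Pparg, the gene labelled as deleted, had more reads in the libraries labelled knockout: 64.2 ± 5.47 CPM (normalised counts-per-million, mean ± SD) in HF KO against 32.4 ± 2.66 in HF C, and 46.7 ± 12.5 in HF TZD KO against 27.0 ± 2.37 in HF TZD C (log2 fold change 0.99, SE 0.08, adjusted p 4.5e-05 without the drug, and log2 fold change 0.79, SE 0.16, adjusted p 0.00420 with it). A count over the whole gene does not show whether an exon is missing, so the deletion could not be checked, and every direction given below for knockout mice refers to the libraries labelled so. Hepatocyte markers dominated all groups, and summed levels of muscle and kidney markers were at most 0.390 CPM in a library. In RNA of whole liver, fewer cells of a type and less RNA per cell cannot be told apart.

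Acot2, Acot1, Acot4 and Acot3 lie in this order, all on the plus strand, on mouse chromosome 12 (GRCm38), from base 83987861, where Acot2 starts, to base 84059565, where Acot3 ends. The RefSeq windows from 250 bases before to 50 bases after the annotated start of these 4 genes are shown. The reason is that 3 of the 4 members called with rosiglitazone in control mice lie in this cluster. The window of Acot12 is added because, among the 8 members with a window, it holds the closest match to a PPAR-type element. All are written 5′ to 3′ on the strand of the gene, and capitals mark the half-site AGGTCA on either strand, or the whole match of 13 letters where the direct repeat AGGTCANAGGTCA was met with at most 2 mismatches.
Acot1: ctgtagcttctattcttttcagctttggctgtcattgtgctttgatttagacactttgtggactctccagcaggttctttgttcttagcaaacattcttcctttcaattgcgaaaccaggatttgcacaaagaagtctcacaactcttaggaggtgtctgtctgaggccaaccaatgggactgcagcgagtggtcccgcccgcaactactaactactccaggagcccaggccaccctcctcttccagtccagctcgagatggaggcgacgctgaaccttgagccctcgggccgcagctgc
Acot2: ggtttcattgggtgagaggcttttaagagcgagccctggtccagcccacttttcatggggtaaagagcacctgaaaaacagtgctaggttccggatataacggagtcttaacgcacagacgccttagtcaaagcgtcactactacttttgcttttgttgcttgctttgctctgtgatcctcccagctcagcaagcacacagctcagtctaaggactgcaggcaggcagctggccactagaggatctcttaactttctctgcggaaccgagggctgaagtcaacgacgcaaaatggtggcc
Acot3: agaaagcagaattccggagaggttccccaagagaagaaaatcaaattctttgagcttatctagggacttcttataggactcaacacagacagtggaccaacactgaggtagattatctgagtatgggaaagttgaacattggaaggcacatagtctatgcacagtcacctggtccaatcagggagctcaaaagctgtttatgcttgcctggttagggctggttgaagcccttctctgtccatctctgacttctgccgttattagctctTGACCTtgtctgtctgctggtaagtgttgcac
Acot4: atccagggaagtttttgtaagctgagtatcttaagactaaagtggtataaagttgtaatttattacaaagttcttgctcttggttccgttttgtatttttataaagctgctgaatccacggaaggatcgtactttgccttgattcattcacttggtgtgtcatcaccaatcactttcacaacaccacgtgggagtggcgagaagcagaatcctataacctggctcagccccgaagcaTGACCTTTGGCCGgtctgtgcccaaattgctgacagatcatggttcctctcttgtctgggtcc
Acot12: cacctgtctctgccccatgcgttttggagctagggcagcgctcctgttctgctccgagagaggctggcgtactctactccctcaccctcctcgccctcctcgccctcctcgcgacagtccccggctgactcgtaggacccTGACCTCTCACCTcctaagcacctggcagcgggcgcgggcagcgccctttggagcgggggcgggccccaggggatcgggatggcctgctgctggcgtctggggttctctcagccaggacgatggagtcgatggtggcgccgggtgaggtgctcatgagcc

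These windows, all on the plus strand of GRCm38.p6, are chr12:84009252-84009551 for Acot1, chr12:83987611-83987910 for Acot2, chr12:84051894-84052193 for Acot3, chr12:84038129-84038428 for Acot4 and chr13:91741271-91741570 for Acot12. RefSeq windows were matched for 8 of the 9 members by symbol. Acot13, which was also called with rosiglitazone in control mice, had no window and was not searched. The repeat of AGGTCA spaced by 1 base is the kind of element that PPARs bind with their partner RXR. Acot12 held it with 1 mismatch on the opposite strand, AGGTGAGAGGTCA, at position -110 from the start, and Acot4 held it with 2 mismatches, CGGCCAAAGGTCA, at position -13. Of 32851 RefSeq promoter windows, 0.554% held a match with at most 1 mismatch and 3.86% with at most 2. Acot12 was picked for the closest match among the members, so a share per window does not measure how rare it is. It was not called with rosiglitazone in control mice. Acot3 held the half-site at position 19, and its closest match to the repeat had 3 mismatches. A second RefSeq window of Acot3, chr12:84051901-84052200, held the half-site at position 12. Of all windows 16.3% held the half-site, with or without the repeat. The closest matches in Acot1 and Acot2 had 4 and 3 mismatches. Of all windows 79.8% have one with at most 4 and 24.6% one with at most 3. Such matches describe letters in these windows and show neither binding nor its absence.

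Reads could not be assigned with equal certainty to all members. Of the 100-base windows of the Acot1 transcript, 21.9% also occur in a transcript of another gene, mostly Acot2, and the share is 17.1% for Acot2, 4.44% for Acot3, 0.36% for Acot4 and 0.968% for Acot9, with none for Acot7, Acot8, Acot12 and Acot13. The libraries did not keep strand. Exons of the noncoding gene 4732463B04Rik overlap those of Acot3 by 312 bases and those of Acot4 by 615 bases on the opposite strand, and reads from there cannot be told apart. That gene had 4040 reads over the 24 libraries, against 18039 for Acot3 and 21412 for Acot4. Acot8 overlaps Snx21 by 246 exonic bases (8409 reads against 9028 for Acot8), and Acot12 overlaps an antisense gene, 4833422C13Rik, by 149 bases (1390 reads against 84936).

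**Figure D1:**
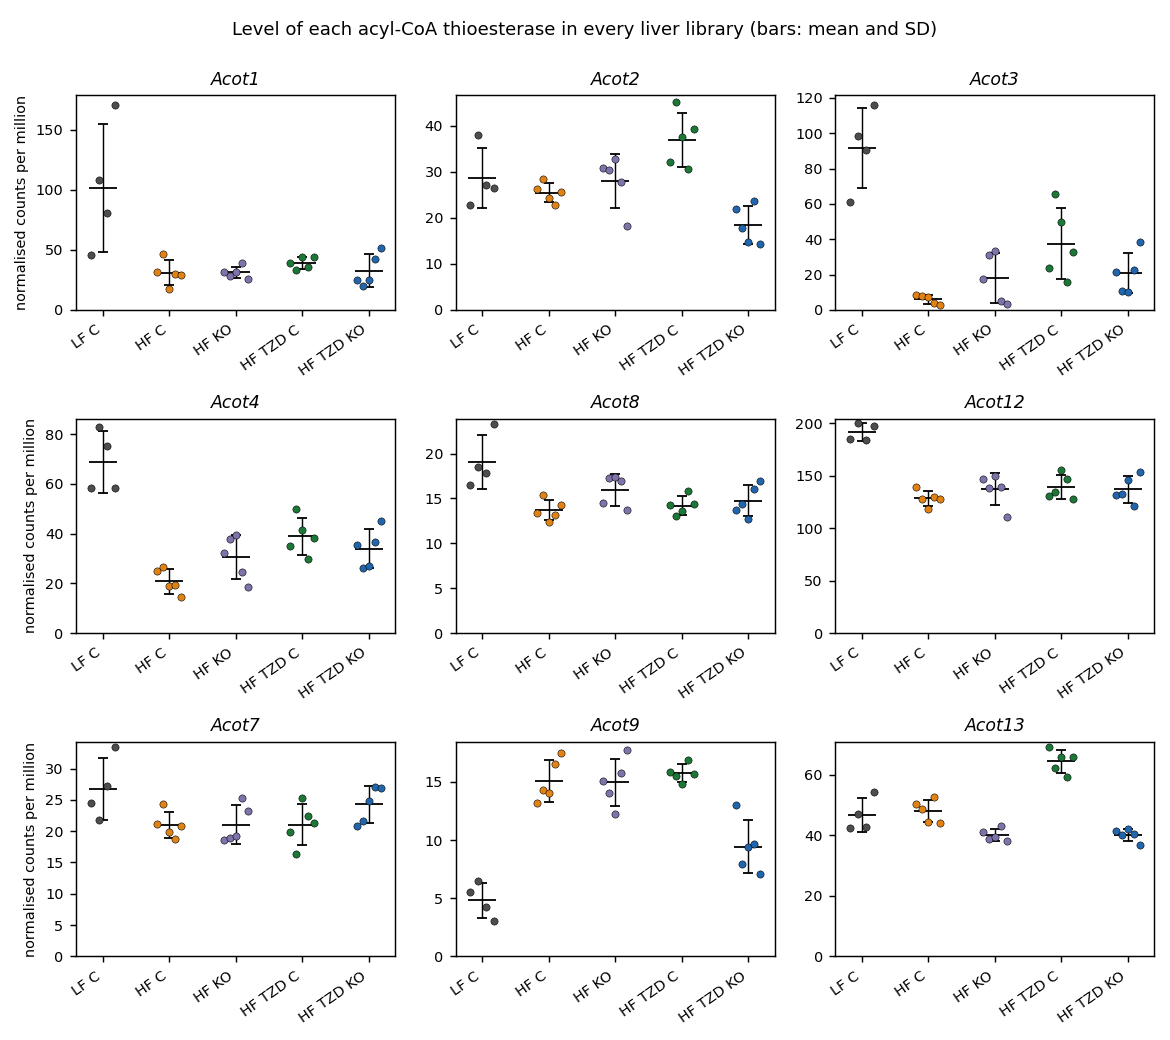
Level in CPM, normalised, for the 9 thioesterases in each of the 24 liver libraries, by group, with the mean and SD of each group as bars; each panel has its own axis from 0. Acot3 lies between 61.3 and 115.8 in LF C and between 2.68 and 8.42 in HF C, whereas Acot9 is lowest in LF C and Acot13 highest in HF TZD C.

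Per kilobase of gene length, the family's summed level was highest in LF C, at 306 ± 57.0 RPKM (CPM per kilobase of gene length, mean ± SD), ranging from 239.7 to 374 over the 4 mice. It was 185 ± 15 in HF C (165 to 203), 188 ± 16.6 in HF KO (159.6 to 202), 242 ± 13.8 in HF TZD C (223 to 260.3) and 186 ± 17.2 in HF TZD KO (166 to 210.3). Neither LF C nor HF TZD C overlapped with HF C, HF KO or HF TZD KO in this sum, while HF C, HF KO and HF TZD KO overlapped with each other. In LF C, Acot1 (65.1 ± 34.1 RPKM), Acot13 (64.7 ± 7.78) and Acot12 (62.7 ± 2.74) had about the same level within their spread, followed by Acot3 (35.3 ± 8.77) and Acot4 (29.5 ± 5.32), with Acot9 lowest (2.75 ± 0.844). In HF C, Acot13 (66.6 ± 5.20) stood above Acot12 (42.0 ± 2.42), both above Acot1 (19.8 ± 6.59), and Acot3 (2.33 ± 0.997) had taken the lowest place. The share of Acot13 in the family's sum was 21.4% ± 2.06 in LF C and 36.2% ± 2.30 in HF C, and that of Acot3 was 11.4% ± 1.06 and 1.26% ± 0.528. The share of Acot1 was 20.3% ± 7.17 and 10.6% ± 2.78, and that of Acot12 was 21.0% ± 3.29 and 22.8% ± 1.32. A share depends on all members at once, so a member's share can differ where its own level does not. The order between genes, the sum and the shares also depend on the deposited gene length. It is 1559, 2594 and 2325 bases for Acot1, Acot3 and Acot4, whose longest coding transcripts have 2272, 3431 and 6203 bases. With those lengths the 3 genes would stand lower.

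**Figure D2:**
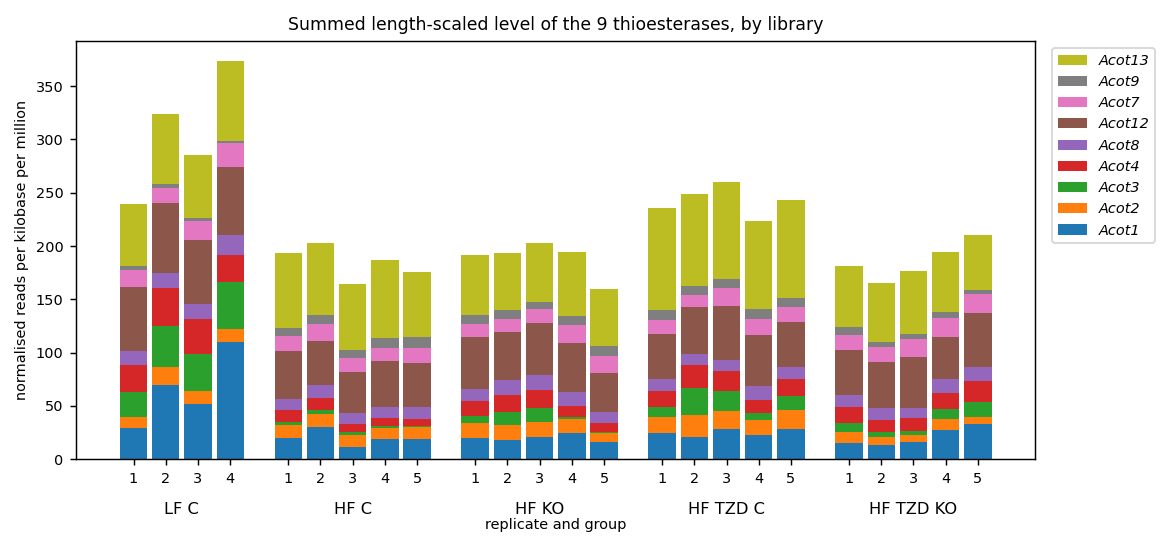
Summed level of the 9 thioesterases in RPKM (normalised CPM per kilobase), stacked by gene, in each library; numbers under the bars are replicates. The blue, green and red parts of Acot1, Acot3 and Acot4 are larger in all 4 LF C libraries than the mean of HF C, and the top part of Acot13 is largest in HF TZD C.

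The diet comparison, HF C against LF C, asks how the HFCF diet changed hepatic expression in control mice. Most of the family was lower on the HFCF diet: Acot1, Acot3, Acot4, Acot7, Acot8 and Acot12 fell, the mitochondrial Acot9 rose, and Acot2 and Acot13 did not pass the test. The test was edgeR's quasi-likelihood test with Benjamini-Hochberg adjustment over all genes, called at an adjusted p under 0.05. By it 7 of 9 members were called, 1 higher and 6 lower (with library totals 2 higher and 4 lower), where 40.6% of the 14772 genes tested were called (21.4% higher and 19.2% lower). The members' median log2 fold change was -0.49, beside -0.03 over all genes. In 5 members (Acot3, Acot4, Acot8, Acot9 and Acot12) the libraries of the groups did not overlap, as in 33.5% of all genes. Hepatocyte markers were also lower in HF C, 8 of 9 of them called, with summed levels of 84079 to 120430 CPM in LF C and 50100 to 59022 in HF C; their part in the members' lower levels was not tested.

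Rosiglitazone in control mice, HF TZD C against HF C, raised 4 members and lowered none. Acot2, Acot3, Acot4 and Acot13 rose, 4 of 9 members where 5.30% of 14937 genes were called, 2.69% higher and 2.61% lower. The same 4 members were those whose groups did not overlap, as in 6.01% of all genes, and the median log2 fold change of the 9 members was 0.35, beside -0.01 over all genes. Summed hepatocyte markers lay at 45713 to 55994 CPM in HF TZD C, overlapping with HF C.

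In mice labelled knockout, rosiglitazone (HF TZD KO against HF KO) gave no call among the 9 members, where 0.735% of 14559 genes were called (0.426% higher and 0.309% lower). The groups overlapped in all 9 members, and did not overlap in 4.37% of genes. At an unadjusted p under 0.05 there were 2, Acot2 and Acot9, both lower, and DESeq2 called these 2. The knockout without the drug (HF KO against HF C) likewise gave no call, where 1.02% of 14844 genes were called (0.485% higher and 0.539% lower); 4 members had an unadjusted p under 0.05 (Acot3, Acot4, Acot8 and Acot13), and DESeq2 called 1, Acot13. Acot13 was also the only member whose HF KO and HF C libraries did not overlap, as in 2.82% of genes.

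With the drug present, the knockout comparison (HF TZD KO against HF TZD C) lowered Acot2, Acot9 and Acot13, 3 of 9 members, where 16.3% of 14602 genes were called, 8.53% higher and 7.81% lower. These 3 were also the members without overlap of the groups, as in 14.2% of genes. The members' median was -0.26, beside 0.00 over all genes. Hepatocyte markers moved the other way, 8 of 9 of them higher in HF TZD KO, with sums of 78789 to 115880 CPM. The test of the difference itself, the drug's change in knockout mice minus its change in controls, passed for the same 3 genes, all negative, where 2.45% of 15365 genes passed, 1.56% positive and 0.892% negative. The comparisons share libraries: HF C stands in 3 of them, and HF KO, HF TZD C and HF TZD KO in 2 each, so a low or high mouse in one group moves several of the values given side by side here.

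**Figure D3:**
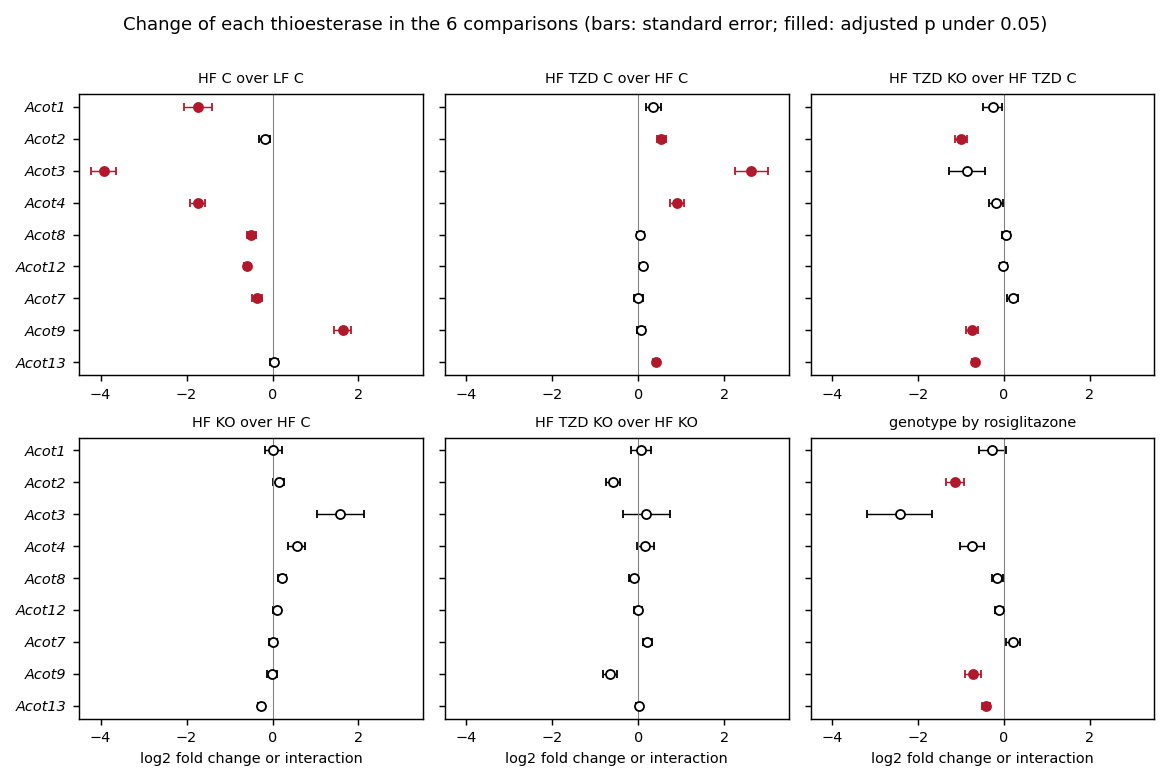
Log2 fold change of each of the 9 thioesterases in the 5 comparisons, and the log2 difference of the drug's change between genotypes, with standard error; filled red points passed at an adjusted p under 0.05. Acot3 has the most negative value on the diet (-3.93) and the most positive with rosiglitazone in control mice (2.63), and Acot2, Acot9 and Acot13 pass in the last panel.

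Acot1, the cytosolic long-chain enzyme, was high and scattered on the low-fat diet. The 4 LF C libraries had 45.5, 108, 80.9 and 171 CPM in replicate order, and the 5 HF C libraries 31.3, 46.5, 17.6, 29.6 and 29.4. The lowest LF C mouse thus lay just below the highest HF C mouse, while the other 3 stood above all HF C values. Acot1 fell 3.31-fold on the HFCF diet (log2 fold change -1.73, SE 0.33, adjusted p 0.00140).

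Acot1 in the remaining groups was at 31.2 ± 4.90 CPM in HF KO, 39.2 ± 4.98 in HF TZD C and 32.8 ± 13.5 in HF TZD KO (n = 5 each). Rosiglitazone in control mice gave no call (log2 fold change 0.35, SE 0.18, adjusted p 0.336), although all 5 treated libraries exceeded the HF C mean. Since 16.5% of the 100-base windows of Acot1 are identical in Acot2, part of either gene's reads may have gone to the other or been left uncounted.

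Acot2, the mitochondrial counterpart of Acot1, did not follow it on the diet, with 28.5 ± 6.54 CPM in LF C (n = 4) and 25.4 ± 2.10 in HF C (n = 5; log2 fold change -0.18, SE 0.13, adjusted p 0.296). It was instead the drug and the labelled genotype that separated the groups. HF C libraries had 26.2, 28.4, 24.2, 22.9 and 25.5 CPM, HF TZD C libraries 32.1, 45.1, 37.5, 30.6 and 39.3, and every treated control lay above every untreated one. Acot2 rose 1.45-fold with rosiglitazone in control mice (log2 fold change 0.54, SE 0.10, adjusted p 0.00715), a call that did not hold in a fit of all 24 libraries (adjusted p 0.0676).

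Mice labelled knockout had lower values with the drug: HF KO libraries had 30.9, 30.4, 32.8, 27.7 and 18.2 CPM and HF TZD KO libraries 21.9, 17.7, 14.7, 23.6 and 14.4. All 5 treated libraries lay below the HF KO mean, but the groups overlapped through HF KO replicate 5. The difference did not pass (log2 fold change -0.59, SE 0.17, adjusted p 0.125). For that comparison the authors' deposited table gives an adjusted p of 0.0357. Between the treated groups Acot2 fell 2.00-fold in HF TZD KO without overlap (log2 fold change -1.0, SE 0.15, adjusted p 7.2e-04). The difference between genotypes in the drug's change passed (log2 difference -1.13, SE 0.21, adjusted p 0.00575) and kept its call without any 1 library.

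Acot3, a peroxisomal enzyme for long-chain acyl-CoAs, had the largest fold changes of the 9 members in both the diet comparison and the drug comparison in control mice. LF C libraries had 61.3, 98.5, 90.3 and 116 CPM and HF C libraries 8.42, 7.87, 7.40, 3.90 and 2.68, far apart and without overlap. Acot3 fell 15.2-fold (log2 fold change -3.93, SE 0.30, adjusted p 4.6e-06). With rosiglitazone, control mice had 23.6, 65.7, 49.8, 15.5 and 32.8 CPM, all above the HF C range and all but replicate 2 below the LF C range. It rose 6.17-fold (log2 fold change 2.63, SE 0.39, adjusted p 0.00147).

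Without the drug the HF KO libraries split widely, at 17.5, 31.3, 33.4, 5.08 and 3.41 CPM. Replicates 1 to 3 stood above every HF C library, whereas replicates 4 and 5 lay within the HF C range, and the comparison did not pass (log2 fold change 1.58, SE 0.55, adjusted p 0.253). Every HF KO library lay above the HF C library of the same number. With replicate number as a block in the edgeR fit, the log2 fold change was 1.28 (adjusted p 0.0538). HF TZD KO libraries had 21.5, 10.9, 10.2, 22.3 and 38.2 CPM and overlapped with both HF KO (log2 fold change 0.19, SE 0.55, adjusted p 0.912) and HF TZD C (log2 fold change -0.86, SE 0.41, adjusted p 0.172). The latter comparison passed without HF TZD KO replicate 5 (adjusted p 0.0442). Group means of Acot3 ran upwards from HF C (6.05 ± 2.59 CPM) through HF KO (18.1 ± 14.1), HF TZD KO (20.6 ± 11.3) and HF TZD C (37.5 ± 20.3) to LF C (91.5 ± 22.7), and HF KO, HF TZD KO and HF TZD C were not separated beyond their spread. The difference between genotypes in the drug's change did not pass (log2 difference -2.43, SE 0.75, adjusted p 0.0889), and passed without HF KO replicate 5 (adjusted p 0.0418).

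Acot4, the peroxisomal enzyme that acts in mouse on succinyl-CoA and related dicarboxylic acyl-CoAs, had the same pattern of calls as Acot3 with smaller folds. LF C libraries had 58.2, 82.8, 75.3 and 58.5 CPM and HF C libraries 25.1, 26.4, 18.8, 19.2 and 14.4, without overlap. It fell 3.34-fold on the diet (log2 fold change -1.74, SE 0.17, adjusted p 2.1e-05). HF TZD C libraries had 34.8, 49.9, 41.6, 30.0 and 38.2 CPM, above all HF C values and below all LF C values. It rose 1.87-fold with the drug in control mice (log2 fold change 0.90, SE 0.16, adjusted p 0.00534).

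In HF KO, Acot4 was at 32.1, 38.0, 39.4, 24.6 and 18.6 CPM, with replicates 1 to 3 above every HF C library and replicates 4 and 5 among them (log2 fold change 0.56, SE 0.20, adjusted p 0.285). With replicate number as a block in the edgeR fit, the log2 fold change was 0.54 (adjusted p 0.0502). HF TZD KO was at 35.4, 26.2, 26.9, 36.6 and 44.9 CPM and overlapped with HF KO (log2 fold change 0.16, SE 0.20, adjusted p 0.765) and with HF TZD C (log2 fold change -0.19, SE 0.16, adjusted p 0.449). The difference in the drug's change between genotypes did not pass (log2 difference -0.74, SE 0.28, adjusted p 0.182). Over groups the mean ran from HF C upwards through HF KO, HF TZD KO and HF TZD C to LF C, and the neighbours HF KO, HF TZD KO and HF TZD C were not separated beyond their spread.

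**Figure D4:**
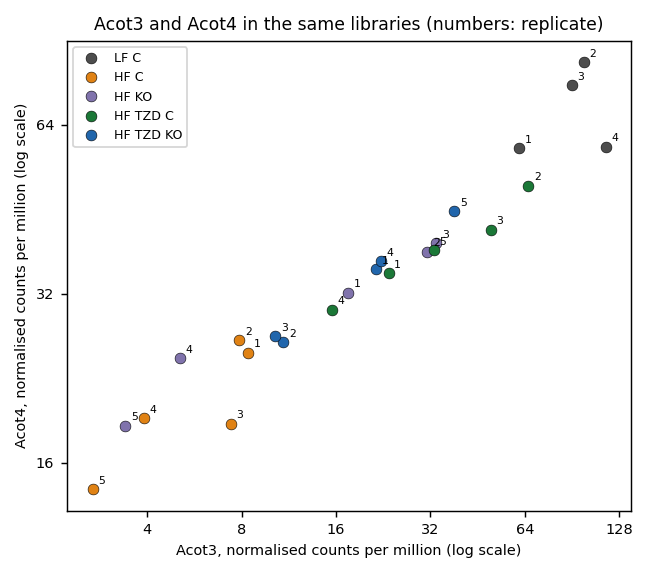
Acot4 against Acot3 in normalised CPM, both on log scales, in the 24 libraries, coloured by group and numbered by replicate. Within HF KO the libraries run from replicate 5 (3.41 and 18.6) to replicate 3 (33.4 and 39.4), and the order of the 5 mice is the same for both genes.

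Acot3 and Acot4 also varied together among mice of a group. Taking every pair of libraries within a group, the mouse with more Acot3 also had more Acot4 in 41 of 46 pairs, including 10 of 10 in HF KO and 10 of 10 in HF TZD C. For Acot1 and Acot2 the count was 29 of 46, for Acot2 and Acot4 36, for Acot2 and Acot3 35, and for Acot3 and Acot9 8. The order was not particular to this pair in HF KO. There Ppara had the order of Acot3 and of Acot4 in 10 of 10 pairs, and in 29 and 30 of 46 over all groups. The opposite-strand gene 4732463B04Rik had the order of Acot3 in 37 of 46 pairs and that of Acot4 in 34 of 46. It fell on the diet (log2 fold change -1.56, SE 0.31, adjusted p 0.00203) and rose with the drug in control mice (log2 fold change 1.07, SE 0.26, adjusted p 0.0266), from 3.71 ± 1.68 CPM in HF C to 7.83 ± 1.76. These counts describe libraries that also share their RNA preparation. Part of the reads of Acot3, Acot4 and 4732463B04Rik comes from overlapping exons, whose part in the shared order was not tested.

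Acot8, a peroxisomal enzyme of broad acyl-CoA specificity that is also active on bile acid CoAs, was called in the diet comparison alone. LF C libraries had 16.5, 18.5, 17.9 and 23.4 CPM and HF C libraries 13.4, 15.4, 12.4, 13.1 and 14.2, the former all above the latter. It fell on the diet (log2 fold change -0.49, SE 0.11, adjusted p 0.00493), a call that was lost with scaling by library totals (adjusted p 0.0914). In HF KO, HF TZD C and HF TZD KO the means were 16 ± 1.75, 14.2 ± 1.04 and 14.8 ± 1.72 CPM, and no comparison among the HFCF-fed groups passed. Its neighbour Snx21, whose exons it overlaps, was at 15.9 ± 3.71 CPM in LF C and 13.3 ± 0.720 in HF C.

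Acot12, the cytosolic enzyme that hydrolyses acetyl-CoA, was tightly grouped. LF C libraries had 185, 200.1, 184 and 198 CPM and HF C libraries 139, 128, 118, 129 and 128. All LF C libraries lay above all libraries of the other 4 groups, and Acot12 fell 1.5-fold on the diet (log2 fold change -0.59, SE 0.07, adjusted p 8.8e-05). The HFCF-fed groups overlapped, with 137 ± 15.4 CPM in HF KO, 139 ± 11.8 in HF TZD C and 137 ± 13 in HF TZD KO. No comparison among them passed, except HF TZD KO against HF TZD C with library totals (log2 fold change -0.19, adjusted p 0.0360).

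Acot7, a cytosolic enzyme best known from brain, was at 24.5, 21.8, 27.2 and 33.4 CPM in LF C and 21.2, 24.4, 19.8, 18.8 and 20.8 in HF C, and these ranges overlapped. Its fall on the diet passed narrowly (log2 fold change -0.36, SE 0.12, adjusted p 0.0313). The call was lost when LF C replicate 3 or 4, or HF C replicate 1, 3, 4 or 5, was left out (adjusted p up to 0.0845), with a log2 fold change of -0.24 at the smallest, and with scaling by library totals (-0.09, adjusted p 0.509). HF KO was at 21.0 ± 3.07 CPM, HF TZD C at 21.1 ± 3.31 and HF TZD KO at 24.3 ± 2.91, with no call.

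Acot9, a mitochondrial enzyme, was the only member to rise on the diet with TMM scaling; with library totals Acot13 also passed as higher. LF C libraries had 5.52, 6.45, 4.21 and 3.07 CPM and HF C libraries 13.2, 14.3, 14, 16.5 and 17.5, so that every HFCF-fed control lay above every LF C mouse. It rose 3.10-fold (log2 fold change 1.63, SE 0.20, adjusted p 7.2e-05). HF KO (15 ± 2.02) and HF TZD C (15.7 ± 0.761) overlapped with HF C and gave no call. Their changes against it were -0.01 (SE 0.11, adjusted p 0.987) and 0.06 (SE 0.09, adjusted p 0.776) on the log2 scale.

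HF TZD KO libraries had 13, 7.91, 9.37, 9.66 and 7.10 CPM, all above LF C and below HF C and HF TZD C, and only replicate 1 reached into the HF KO range. Acot9 fell against HF TZD C, without overlap (log2 fold change -0.74, SE 0.14, adjusted p 0.00335). Against HF KO it did not pass (log2 fold change -0.66, SE 0.16, adjusted p 0.0698), but it passed without HF TZD KO replicate 1 (adjusted p 0.0237), in a fit of all 24 libraries and in DESeq2. For that comparison the authors' deposited table gives an adjusted p of 0.00567. The difference between genotypes in the drug's change passed (log2 difference -0.72, SE 0.18, adjusted p 0.0377); the call was lost in 13 of 20 fits that left out 1 library, with an adjusted p of at most 0.0739 and a log2 difference from -0.87 to -0.64. It was also lost in the fit of all 24 libraries (adjusted p 0.0996).

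Some markers of other liver cells moved with Acot9 and some did not. Over all genes, 21.4% were called higher and 19.2% lower on the diet, and 8.53% and 7.81% in HF TZD KO against HF TZD C. The 8 stellate cell and myofibroblast markers summed to 153 to 244 CPM in LF C, 687 to 1056 in HF C, 614 to 974 in HF KO, 765 to 1303 in HF TZD C and 267 to 685 in HF TZD KO. On the diet 7 of 8 rose, and 3 of 8 (Col1a1, Col1a2 and Col3a1, the fibrillar collagens) fell in HF TZD KO against HF TZD C. In the latter comparison 5 of 8 did not pass, and the median log2 fold change of the 8 was -0.27. Of 10 macrophage markers 9 were measured, and they summed to 317 to 606 CPM in LF C, 668 to 1115 in HF C, 669 to 847 in HF KO, 841 to 1154 in HF TZD C and 349.7 to 941 in HF TZD KO. On the diet 7 of the 9 rose, led by Trem2 (3.95, adjusted p 4.6e-06), and 1, the resident macrophage marker Timd4, fell (-2.63, adjusted p 0.00638). In HF TZD KO against HF TZD C, where Acot9 fell, no macrophage marker passed in edgeR, 6 had an unadjusted p under 0.05 and DESeq2 called 4. Their median log2 fold change was -0.64, and the summed levels overlapped. Of 5 endothelial markers, Clec4g and Kdr fell on the diet, where Acot9 rose, and Pecam1 fell in HF TZD KO against HF TZD C. Of 7 lymphocyte markers 5 rose on the diet, and 2 (Ms4a1 and Ptprc) fell in HF TZD KO against HF TZD C. All 6 cholangiocyte markers rose on the diet, and none passed in HF TZD KO against HF TZD C. The 2 neutrophil markers tested in that comparison both rose. None of the macrophage or stellate cell markers was at 0 in every library of a group. The part of these cells in the level of Acot9 was not tested.

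**Figure D5:**
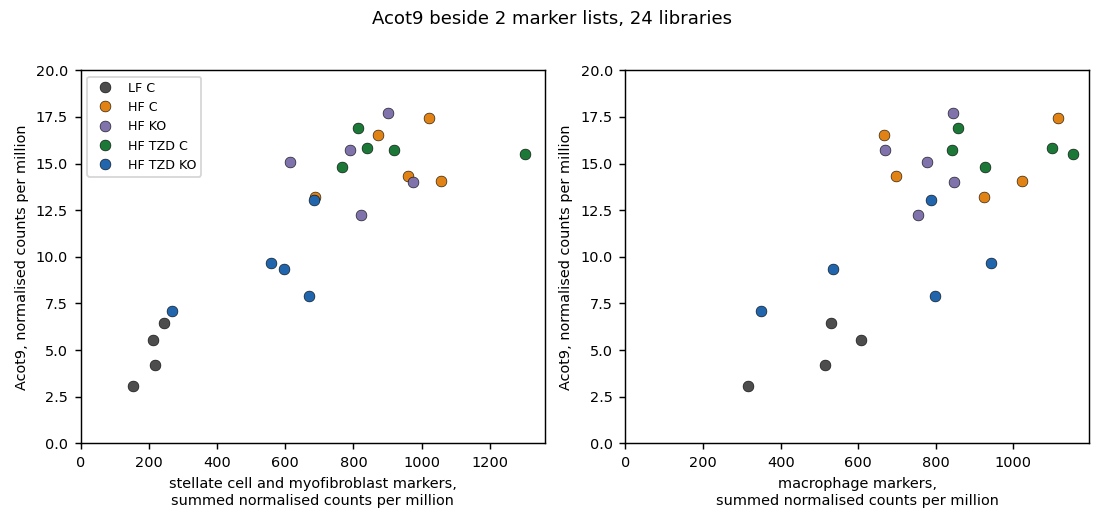
Acot9 in normalised CPM against the summed level of stellate cell and myofibroblast markers (left) and macrophage markers (right), in the 24 libraries by group. LF C libraries lie at the lower left, at most at 244 CPM of stellate cell markers and 6.45 CPM of Acot9, and HF TZD KO libraries lie between them and HF TZD C in Acot9.

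Acot13, also called Them2, a mitochondria-associated enzyme for long-chain acyl-CoAs that pairs with phosphatidylcholine transfer protein, did not pass on the diet, with 46.6 ± 5.61 CPM in LF C and 48.0 ± 3.75 in HF C (log2 fold change 0.03, SE 0.09, adjusted p 0.816). With scaling by library totals it did pass (log2 fold change 0.30, adjusted p 0.0166), where the median of all genes moved from -0.03 to 0.24. Its libraries were grouped closely by drug and labelled genotype. HF C libraries had 50.3, 48.7, 44.6, 52.7 and 43.9 CPM and HF TZD C libraries 69.3, 62.2, 65.8, 59.4 and 65.9, and the lowest treated control exceeded the highest value in every other group. It rose 1.34-fold with rosiglitazone in control mice (log2 fold change 0.42, SE 0.07, adjusted p 0.00201).

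HF KO libraries had 41.0, 38.8, 39.5, 43.1 and 38.2 CPM and HF TZD KO libraries 41.4, 40.1, 42.1, 40.4 and 37.0. The former all lay below HF C, by a difference that did not pass in edgeR (log2 fold change -0.26, SE 0.07, adjusted p 0.0963). For it, the authors' deposited table gives an adjusted p of 0.0258. The knockout groups with and without the drug overlapped (log2 fold change 0.01, SE 0.07, adjusted p 0.967). With the drug, Acot13 fell 1.61-fold in HF TZD KO against HF TZD C (log2 fold change -0.68, SE 0.06, adjusted p 2.2e-05), and the difference in the drug's change between genotypes passed (log2 difference -0.42, SE 0.09, adjusted p 0.0129). Both kept their call without any 1 library.

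Of the other genes named Acot, Acot11, a lipid-binding thioesterase also called Them1, was at 13.6 ± 1.14 CPM in LF C, 8.08 ± 0.729 in HF C, 11.7 ± 1.16 in HF KO, 7.76 ± 0.943 in HF TZD C and 15.2 ± 2.26 in HF TZD KO. It fell on the diet (log2 fold change -0.77, SE 0.11, adjusted p 3.1e-04) and rose in the libraries labelled knockout, both without the drug (log2 fold change 0.53, SE 0.10, adjusted p 0.0252) and with it (log2 fold change 0.97, SE 0.13, adjusted p 2.2e-04). The call without the drug was lost when HF C replicate 4 or HF KO replicate 2, 3 or 4 was left out. No comparison passed for Acot6, whose groups ranged from 2.44 ± 0.419 CPM in LF C to 3.65 ± 0.834 in HF C. On the diet it came near the threshold as higher (log2 fold change 0.56, SE 0.22, adjusted p 0.0573). Its HF C and LF C libraries did not overlap, as in 33.5% of all genes. Acot5 and Acot10 were at most 0.344 CPM in a library and were not tested.

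With TMM scaling, genes that make, carry or oxidise acyl-CoAs also included many that fell on the HFCF diet. Over all 14772 genes tested, 40.6% were called, 21.4% higher and 19.2% lower. In the list of acyl-CoA synthesis and carnitine transfer, 11 of 20 genes tested fell and 2 rose (median log2 fold change -0.35, beside -0.03 over all genes). Acsl1, the main long-chain acyl-CoA synthetase of liver, changed by -1.08, adjusted p 1.2e-04, and Slc27a5, the bile acid CoA ligase, by -0.66, adjusted p 0.00113. Of 28 genes of peroxisomal oxidation and biogenesis 18 fell and none rose (median -0.40), among them Pecr, a peroxisomal enoyl-CoA reductase (-1.02, adjusted p 3.5e-05), and Hacl1, which cleaves 2-hydroxyacyl-CoAs (-1.36, adjusted p 5.1e-05). Of 20 genes of mitochondrial oxidation 8 fell and none rose (median -0.25), and of 20 PPARα targets tested 9 fell and 2 rose (median -0.27). Of 8 other thioesterases tested 3 fell and 2 rose. The balance of these lists depended on the scaling. With library totals, where the median of all genes was 0.24, the synthesis list had 7 higher and 4 lower genes (median -0.09), the PPARα targets 6 higher and 5 lower (median -0.01), and the mitochondrial list 3 higher and 2 lower (median 0.02). The peroxisomal list then had 4 higher and 7 lower genes (median -0.14), and the other thioesterases 3 higher and 1 lower.

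With rosiglitazone in control mice, part of the same lists was higher, where 5.30% of all genes were called. In the peroxisomal list 8 of 28 rose and 1 fell (median 0.11, beside -0.01 over all genes), among them the thiolases Acaa1b (0.87, adjusted p 4.6e-04) and Acaa1a (0.53, adjusted p 9.2e-04). Of 21 PPARα targets 6 rose and 1 fell (median 0.29), and in the synthesis list 5 of 20 rose, Acsl1 by 0.86, adjusted p 2.2e-04. Acaa1b, Ehhadh and Pex11a rose and are counted both in the peroxisomal list and among the PPARα targets. Of 20 mitochondrial oxidation genes 3 rose, Eci2, Acadm and Eci1 (6 rose with library totals). None of the 8 other thioesterases passed in edgeR (median -0.04), 0 had an unadjusted p under 0.05, and DESeq2 called 0. A fit of all 24 libraries left 4 calls among the PPARα targets and 2 in the synthesis list.

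In mice labelled knockout, no gene of these 5 lists was called with the drug in edgeR, where 0.735% of 14559 genes were called. At that share, few calls or none would be expected in lists of this size. At an unadjusted p under 0.05 there were 8 PPARα targets, 6 genes of the synthesis list, 4 other thioesterases, 3 peroxisomal and 1 mitochondrial gene, and DESeq2 called 2, 3, 1, 1 and 0 of these lists. Without HF TZD KO replicate 1, edgeR called 1 PPARα target and 1 other thioesterase. In HF TZD KO against HF TZD C, 16.3% of 14602 genes were called, 8.53% higher and 7.81% lower. Of 28 peroxisomal genes 8 fell and 2 rose, led by Acaa1b (-1.82, adjusted p 1.5e-07). Of 21 PPARα targets 8 fell and 2 rose, led by Vnn1, a pantetheinase (-2.17, adjusted p 9.7e-08). Acaa1b, Ehhadh and Pex11a fell and are counted in both lists. Of 20 mitochondrial genes 6 fell, led by Eci1 (-0.83, adjusted p 6.9e-06), and in the synthesis list 6 of 20 fell and 4 rose, among the latter Slc27a5 (0.81, adjusted p 5.8e-04). With scaling by library totals, 14 peroxisomal genes fell and 2 rose, 14 mitochondrial genes fell, and in the synthesis list 8 fell and 2 rose. The difference in the drug's change between genotypes passed for 6 PPARα targets and 4 peroxisomal genes, all negative, where 2.45% of 15365 genes passed. Acaa1b (-1.13, adjusted p 0.00218), Ehhadh (-0.86, adjusted p 0.00912) and Pex11a (-0.62, adjusted p 0.0431) were counted in both lists. In the mitochondrial list Acadm passed with a negative value (-0.46, adjusted p 0.0239), and in the synthesis list Slc27a5 passed with a positive one (0.56, adjusted p 0.0479). With library totals 8 peroxisomal, 6 mitochondrial and 5 synthesis genes passed, of which 1, in the synthesis list, was positive. In the fit of all 24 libraries no gene of the synthesis list passed. The peroxisomal count was 2 when HF C replicate 1, 3, 4 or 5, HF KO replicate 2, 3 or 4, or HF TZD C replicate 2, 3 or 5 was left out. The receptor gene Ppara itself passed in no comparison, with 139.9 to 311 CPM in LF C and 182 to 205 in HF C. On the diet it came near the threshold in edgeR (log2 fold change -0.47, SE 0.19, adjusted p 0.0625). LF C replicate 4, at 139.9 CPM, lay below all HF C libraries, and the other LF C libraries lay above them.

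Over the 24 libraries, the genes whose centred log2 levels differed least from a member were found among 14181 protein-coding genes. For Acot9 these were Anxa5, Stk10 and Col4a1, with root mean square differences of 0.19, 0.20 and 0.22, against 0.68 for the spread of Acot9 itself. For Acot13 they were Tmem120a (0.11), Mrpl45 (0.14) and Mprip (0.14), against 0.27, and for Acot2 Rcan1 (0.27), Alpl (0.28) and Tmem120a (0.28), against 0.41. For Acot4 they were Sbk1, Acsl1 and Nrg4 (0.35 to 0.36, against 0.62), and for Acot1 Ces1f, Fabp1 and Plekhb1 (0.41 to 0.43, against 0.72). The nearest to Acot3 were Cyp46a1 (0.94), Ciart (0.98) and Usp2 (1.00), against 1.54. Among members of small spread, the nearest genes were Lyrm5, Dhdh and Chuk for Acot12, Cpn1, Ndufs8 and Ube2b for Acot7, and Rchy1, Rpf1 and Ube2r2 for Acot8.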

How the data were processed

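Alignment used STAR 2.6.1 on the GRCm38 (mm10) build, gene counting HTSeq 0.6.1 and the authors' tests DESeq2, per the submitters' processing notes. The release of the annotation, read length and counting settings are not given in the sources used here. Per the labels' protocols, libraries were not strand specific. There are 5 deposited tables, 1 for each pairwise comparison. Their read counts were deposited as raw whole numbers, and every test starts from them. The authors' normalized signal (counts divided by a size factor per sample) was not used. The FPKM that the authors deposited, scaled by gene length and library size, served as an alternative for levels. The authors' log2 fold changes and p-values, with adjusted ones, are quoted only where named as from the deposited table. Of the deposited columns of other kinds, gene length in bases was used for RPKM.

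Joining them on the gene identifier gave 24137 genes, and 0 counts differed between tables. Levels are CPM with TMM factors of all 24 libraries scaled together. Each comparison was fitted over all genes on the libraries of its groups with edgeR 4.0.16 in R 4.3.3 (filterByExpr with a minimum count of 10 and a total of 15, TMM, quasi-likelihood, two-sided, Benjamini-Hochberg adjusted p under 0.05). The difference of the drug's change between genotypes used the 20 HFCF-fed libraries. SE was taken as the absolute log2 fold change over √F. The code was tested on simulated data. Shared windows came from GENCODE vM21 transcripts of genes in the tables (longest coding transcript of each member), and promoters from RefSeq (GRCm38.p6).

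The members, lists and markers were chosen with earlier results of these data known. Named were the 9 members, up to 4 called genes of smallest adjusted p from each list, the 3 nearest genes by root mean square difference of centred log2 CPM (prior count 2), overlapping genes, Pparg and Ppara. Replicates of a group were separate mice, and their counts differed beyond sampling noise (chi-square per degree of freedom 11.6 to 73.5 over 46 pairs). Alternatives were RLE scaling, library totals, no filter, 1 fit of all 24 libraries, DESeq2 1.42.0, a replicate block, deposited FPKM, and each library left out in turn. Marker genes that the tables do not list were not analysed here. One gene of the fixed lists is counted there but is not reported here by name.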

Additional observations from a re-analysis of the deposited data

Results flagged for a closer look

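The drug's change differed between the labelled genotypes for 3 members, by the test of the difference itself in edgeR over the 20 HFCF-fed libraries. The value for Acot2 was -1.13 on the log2 scale (SE 0.21, adjusted p 0.00575): all 5 treated controls lay above the HF C mean, and all 5 treated mice labelled knockout lay below the HF KO mean. The value for Acot13 was -0.42 (SE 0.09, adjusted p 0.0129), with all 5 treated controls above HF C and the knockout groups overlapping. The value for Acot9 was -0.72 (SE 0.18, adjusted p 0.0377), with treated and untreated controls overlapping and all 5 treated mice labelled knockout below the HF KO mean. No single library stood apart by Dixon's test in any of the 45 sets of a member and a group.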

How the results depend on the processing

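None of the members' called fold changes reversed under any alternative. Of 945 repeated values 908 kept their side of the threshold, while 25 were weaker and 12 stronger. The sign of values that were not called could change, as for Acot2 on the diet (-0.18, and 0.08 with library totals). Members called with rosiglitazone in control mice were 3 in the fit of all 24 libraries and 4 under the other alternatives. For the knockout without the drug, 1 member was called with library totals and 1 with DESeq2 (Acot13 in both). For the drug in knockout mice, 1 was called without a filter (Acot9), and 2 with DESeq2 and 2 in the fit of all 24 libraries. Leaving out 1 library gave 6 to 7 members for the diet, 0 to 0 for the knockout, 4 to 4 and 0 to 1 for the drug in control and knockout mice, 3 to 4 for the knockout with the drug, and 2 to 3 for the difference. With deposited FPKM, 42 group means lay within the SD of the RPKM mean and 3 did not. These were Acot12 in LF C (55.6 FPKM against 62.7 RPKM), Acot13 in HF TZD C (95.7 against 89.5) and Acot9 in HF TZD C (9.60 against 8.98).

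Over all genes, DESeq2 called 372 genes for the knockout (152 in edgeR), 1225 for the drug in controls (792), 651 for the drug in knockout mice (107) and 718 for the difference (376). The fit of all 24 libraries called 90, 387, 440 and 202. Library totals called 220 for the drug in knockout mice and 3656 for the knockout with the drug (2387), and no filter called 201 for the drug in knockout mice. Leaving out 1 library gave 5025 to 6123 genes for the diet, 64 to 186 for the knockout, 497 to 930 and 0 to 223 for the drug in control and knockout mice, 1569 to 2695 for the knockout with the drug, and 191 to 467 for the difference. Library totals moved the median log2 fold change of all genes on the diet from -0.03 to 0.24, to -0.11 for the drug in knockout mice, to -0.16 for the knockout with the drug and to -0.12 for the difference. The calls were then 5309 higher and 886 lower for the diet (3168 and 2835 with TMM), 56 and 118 for the knockout (72 and 80), 51 and 169 for the drug in knockout mice (62 and 45), 740 and 2916 for the knockout with the drug (1246 and 1141), and 163 and 387 for the difference (239 and 137).

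Replicate numbers were not taken as pairs of mice in the main tests. At most 2 of 5 same-numbered pairs correlated over 0.1 in a comparison, which cannot exclude pairing. For the knockout without the drug, same-numbered pairs had correlations of -0.112 to 0.146 (median 0.0796, beside -0.019 for other pairs). With the replicate block, 386 genes were called for the drug in controls, 236 for the difference, and 0 for the drug in knockout mice (1963 at an unadjusted p under 0.05), and Acot7 on the diet and Acot9 for the difference no longer passed. Among the lists, the block took the other thioesterases for the knockout from 1 call (Acot11) to 0 and the mitochondrial genes on the diet from 8 to 5. For the drug in controls it left 4 PPARα targets and 3 synthesis genes, and for the difference 2 peroxisomal, 0 mitochondrial and 0 synthesis genes. The causes were not tested. Depth limited Acot9 most, with 62 reads in its lowest library.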
